A study of Homo sapiens with 9 samples.

Results

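The CDC2-like kinases CLK1, CLK2, CLK3 and CLK4 and the SR protein kinases SRPK1 and SRPK2 were taken by name as 6 genes of the 30421 that had reads in at least 1 library. All 6 could be tested in every comparison, and their 89 annotated transcripts were followed singly and by class, 14 of which were at 0 in every library. RNA was sequenced from K562, a human erythroleukaemia line, in 3 groups of 3 libraries each. SCR cells received a non-targeting siRNA (the labels give their treatment as WT), the DHX34 knockdown a commercial pool of siRNAs against DHX34, and the UPF1 knockdown siRNAs against UPF1. All groups were cells of 1 line that were transfected again on day 3 and harvested on day 4, so p-values measure the spread between transfected cultures of that line. The comparison with SCR asks how each knockdown altered the transcriptome, and the comparison of the knockdowns with each other needs no SCR library.

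CLK kinases are nuclear enzymes that phosphorylate the arginine-serine repeats of SR proteins, a family of splicing factors, and release them from nuclear speckles. SRPK1 and SRPK2 phosphorylate the same repeats mainly in the cytoplasm, which allows the SR proteins to be imported into the nucleus. The CLK genes are known for a feedback on themselves, in which exon 4 is skipped or the flanking introns stay in a nuclear transcript when kinase activity is high, so that less full-length kinase is made. UPF1 is the central helicase of nonsense-mediated decay (NMD), which removes mRNAs that end their reading frame too early, and DHX34 is a helicase linked to that pathway and to splicing.

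Exon 4 is shown because it is the exon whose inclusion separates the coding from the skipped form in each CLK gene, with the exon in capitals, 20 bases of the intron before it and 10 bases of the intron after it in lower case. All coordinates are on hg38, and each sequence is written 5′ to 3′ on the strand of the gene. The exons are at chr2:200860125-200860215 on the minus strand for CLK1, chr1:155268708-155268795 on the minus strand for CLK2, chr15:74622120-74622216 on the plus strand for CLK3 and chr5:178617344-178617434 on the minus strand for CLK4.
CLK1 exon 4: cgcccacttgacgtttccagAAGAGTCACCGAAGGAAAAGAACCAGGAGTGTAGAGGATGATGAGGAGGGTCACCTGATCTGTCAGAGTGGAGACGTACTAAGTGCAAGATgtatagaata
CLK2 exon 4: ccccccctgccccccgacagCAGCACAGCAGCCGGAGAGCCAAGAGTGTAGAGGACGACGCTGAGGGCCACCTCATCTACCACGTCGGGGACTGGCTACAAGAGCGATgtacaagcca
CLK3 exon 4: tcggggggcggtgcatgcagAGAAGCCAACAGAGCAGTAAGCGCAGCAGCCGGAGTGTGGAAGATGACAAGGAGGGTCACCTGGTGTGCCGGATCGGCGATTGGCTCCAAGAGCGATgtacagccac
CLK4 exon 4: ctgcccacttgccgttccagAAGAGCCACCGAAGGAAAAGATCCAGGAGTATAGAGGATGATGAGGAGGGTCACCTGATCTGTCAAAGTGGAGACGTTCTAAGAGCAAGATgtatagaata
The exons are 91, 88, 97 and 91 bases long, each is coding throughout, and each length leaves a remainder of 1 when divided by 3. Joining the neighbouring exons without exon 4 therefore shifts the reading frame. The first stop then came after 136 codons in CLK1, 139 in CLK2, 152 in CLK3 and 143 in CLK4, against 484, 499, 490 and 481 codons with the exon. These early stops lie 809, 809, 740 and 782 bases before the last exon junction, a position that marks a transcript as an NMD substrate in the usual rule. The exons of CLK1 and CLK4 are identical at 85 of 91 bases (93.4%), so the division of reads between these similar genes rests on the quantification and was not tested.

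The libraries held between 73478797 and 103625443 expected counts, the reads that salmon assigned to transcripts, which need not be whole. The targeted mRNAs checked the labels: DHX34 was left at 45.1% of its SCR mean by its own siRNAs, and UPF1 at 43.2% by its own, in counts scaled to the library total (CPM), so both knockdowns were partial. All 9 markers of K562 cells were above 1 TPM (a transcript level scaled for length and library) in every library, while their summed level ran from 2.56e+04 to 2.72e+04 TPM in SCR, 2.35e+04 to 2.56e+04 in the DHX34 knockdown and 1.55e+04 to 1.67e+04 in the UPF1 knockdown. Of the markers of other cell types, the defining genes MS4A1 of B cells and KRT5 of epithelial cells were at 0. In such bulk RNA, fewer cells of a type and less RNA per cell cannot be told apart. On the TPM scale the median gene lay 0.13 log2 units above SCR after DHX34 knockdown and 0.17 above it after UPF1 knockdown, against 0.02 in both with TMM-normalised counts. With limma on log2(TPM + 0.5) in place of edgeR on counts, which changes the test as well as the scale, the share of changed genes that were higher went from 53.3% to 89.4% in the DHX34 knockdown, from 49% to 91.9% in the UPF1 knockdown, and from 57% to 70.2% between the knockdowns. Fold changes below are therefore from counts, and TPM is used for levels and for shares within a gene.

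On hg38 CLK1 (ENSG00000013441) lies at chr2:200853009-200864691, CLK2 (ENSG00000176444) at chr1:155262868-155278491, CLK3 (ENSG00000179335) at chr15:74598500-74645414, CLK4 (ENSG00000113240) at chr5:178602664-178630615, SRPK1 (ENSG00000096063) at chr6:35832966-35921342 and SRPK2 (ENSG00000135250) at chr7:105110704-105399308, all but CLK3 on the minus strand. By TPM summed over each gene, SRPK1 was the most abundant kinase, followed by CLK3, CLK2, SRPK2, CLK1 and CLK4. SRPK1 was at 102.3, 111.1 and 114.6 TPM in SCR, 123.6, 126.2 and 125.4 in the DHX34 knockdown, and 128.4, 128.8 and 127.4 in the UPF1 knockdown. CLK4 was lowest, with 3.651, 3.505 and 3.588 TPM in SCR, 2.820, 2.694 and 3.676 in the DHX34 knockdown, and 4.315, 4.239 and 4.847 in the UPF1 knockdown. The order was the same in all 3 groups, and the ranges of neighbours in it did not overlap within any group. Mean levels in SCR were 37.3 TPM for CLK3, 28.1 for CLK2, 18 for SRPK2 and 12.1 for CLK1 (SD 2.2, 1.02, 1.41 and 0.886, n = 3). The place of CLK3 depends on the scale. In TMM-normalised CPM its SCR mean was 36.55, below 46.61 for CLK2 and 46.88 for SRPK2. CLK3-223, a coding transcript of only 481 bases, held 15.476, 12.349 and 14.223 TPM of CLK3 in SCR.

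**Figure D1:**
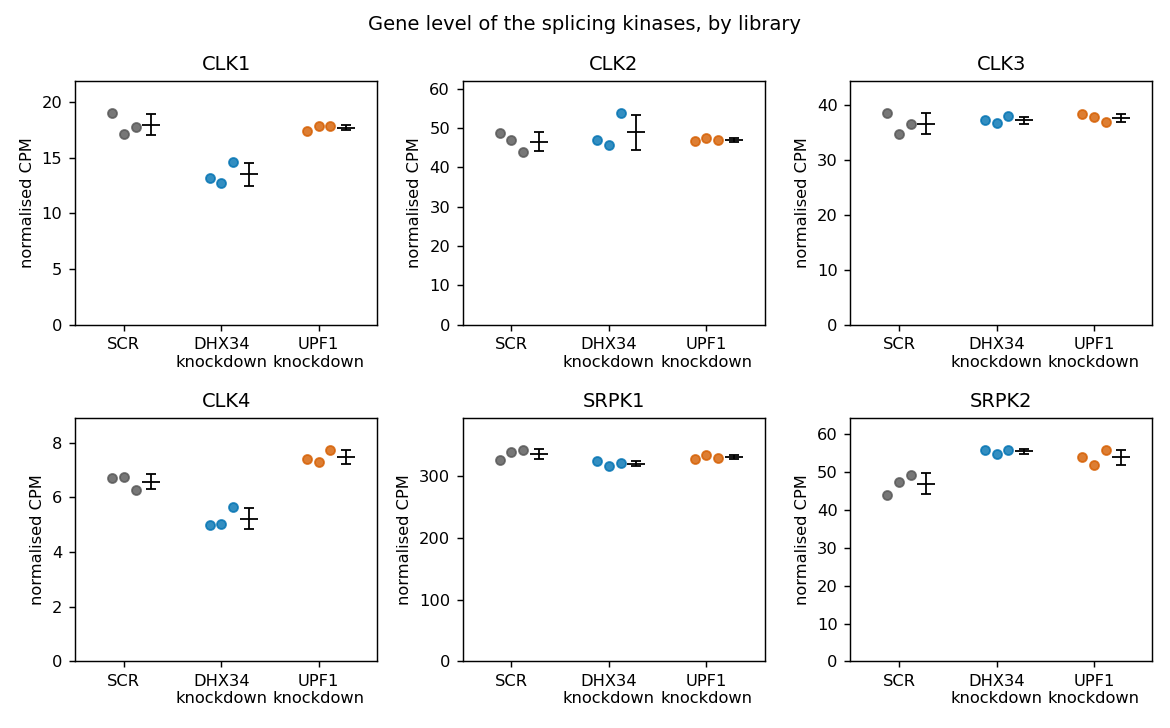
Normalised level of each kinase gene in the 9 libraries (TMM-normalised CPM on the vertical axis, 1 panel per gene), with points for libraries and, beside them, the group mean with its SD. CLK1 sits lower in all 3 DHX34 knockdown libraries (12.73 to 14.64 CPM) than in SCR (17.16 to 19.04), and SRPK2 sits higher in both knockdowns than in SCR.

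In the DHX34 knockdown, CLK1 fell and SRPK2 rose, and the other 4 kinases did not pass the test (edgeR quasi-likelihood, with p-values adjusted by Benjamini-Hochberg over all genes tested and a threshold of 0.005). These are 1 of 6 higher and 1 of 6 lower, where 5.54% of all tested genes were called higher and 4.86% lower. CLK1 was at 19.04, 17.16 and 17.73 normalised CPM in SCR and at 13.15, 12.73 and 14.64 in the DHX34 knockdown. All 3 knockdown libraries lay under all 3 SCR libraries, and the log2 fold change (SE) was -0.41 (0.07) at an edgeR adjusted p of 0.0017. SRPK2 was at 43.9, 47.41 and 49.32 normalised CPM in SCR and at 55.79, 54.71 and 55.85 in the knockdown. Its groups did not overlap either, and the log2 fold change (SE) was 0.24 (0.047) at an edgeR adjusted p of 0.00346. Non-overlap of gene levels was common. In TPM it held for 44.4% of all tested genes after DHX34 knockdown and 54% after UPF1 knockdown. Between the knockdowns it held for 40.4%, and the shares in normalised CPM were not computed. CLK4, the kinase closest to CLK1 in sequence, was at 6.698, 6.755 and 6.275 normalised CPM in SCR and at 4.981, 5.009 and 5.664 in the knockdown. It lay lower in all 3 knockdown libraries but was not called (log2 fold change -0.33, SE 0.096, edgeR adjusted p 0.0261). For CLK2, CLK3 and SRPK1 the log2 fold changes were 0.07 (95% interval -0.07 to 0.21), 0.03 (-0.08 to 0.13) and -0.07 (-0.14 to 0.01). Neither call was firm: that of CLK1 held in 1 of 6 fits that left out a library (edgeR adjusted p 0.000689 without DHX34 knockdown replicate 3, 0.00522 to 0.0129 without any of the others), and so did that of SRPK2 (0.00485 without DHX34 knockdown replicate 3, 0.00563 to 0.0177 otherwise). With counts scaled for transcript length, the log2 fold changes were -0.47 and 0.26 and the adjusted p 0.0109 and 0.0188.

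In the UPF1 knockdown no kinase gene was called, where 12.4% of all tested genes were called higher and 12.9% lower. At an unadjusted p under 0.05 edgeR counted 2 of the 6, CLK4 and SRPK2, where 47.3% of all genes reached that level. DESeq2 called 1, SRPK2, at the same adjusted threshold, which 29.7% of all genes passed. SRPK2 was at 53.92, 51.9 and 55.94 normalised CPM in the UPF1 knockdown, above all 3 SCR libraries. It was 0.20 higher on the log2 scale with an edgeR adjusted p of 0.00536, just outside the threshold. In fits that left out a library, the edgeR adjusted p was 0.00386 without SCR replicate 3 and 0.00776 to 0.0297 without any of the others. CLK4 was at 7.414, 7.277 and 7.749 normalised CPM, above the 3 SCR libraries, 0.18 higher on the log2 scale and not called (edgeR adjusted p 0.0935). CLK1, at 17.44, 17.82 and 17.86 normalised CPM, lay within the SCR range (log2 fold change -0.03, 95% interval -0.14 to 0.09). The intervals for CLK2 (-0.09 to 0.11), CLK3 (-0.06 to 0.13) and SRPK1 (-0.09 to 0.03) also held 0.

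Set directly against each other, the knockdowns differed in CLK1 and CLK4, both higher in the UPF1 knockdown. The difference of CLK1 was 0.40 on the log2 scale (SE 0.064, edgeR adjusted p 0.000723) and that of CLK4 0.53 (SE 0.087, edgeR adjusted p 0.000833). In both genes the 3 UPF1 knockdown libraries lay above the 3 DHX34 knockdown libraries. These are 2 of 6 genes higher and 0 lower, where 9.89% of all tested genes were called higher in the UPF1 knockdown and 7.47% lower. SRPK2 did not differ by this test (log2 difference -0.03, 95% interval -0.11 to 0.06). Without UPF1 knockdown replicate 3 neither call held (edgeR adjusted p 0.00521 for CLK1 and 0.00656 for CLK4), and without UPF1 knockdown replicate 2 that of CLK1 was at 0.00505.

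**Figure D2:**
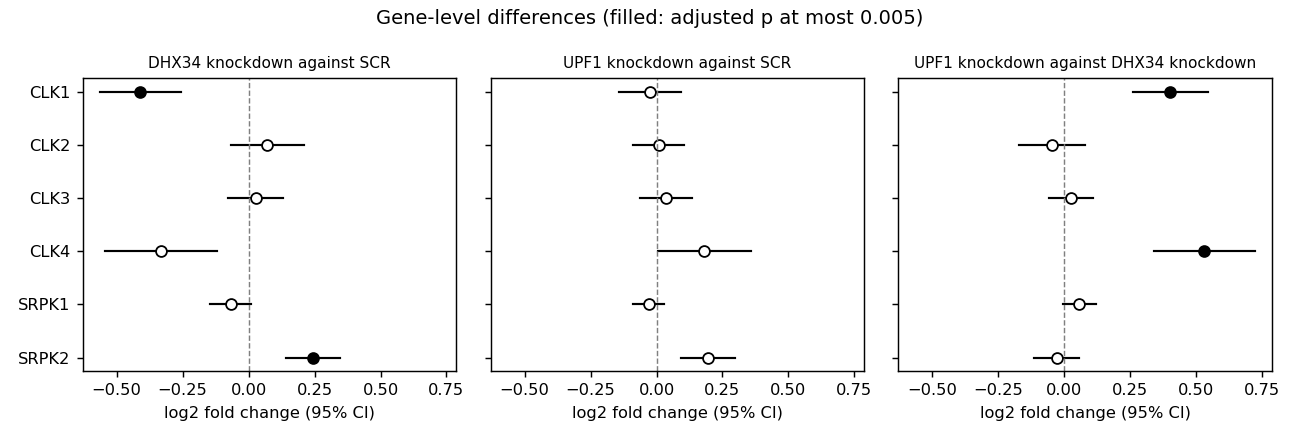
Log2 fold change of each kinase gene in the 3 comparisons, with bars for the 95% interval and filled points for changes called by edgeR. CLK1 is below 0 in the DHX34 knockdown (-0.41) and near 0 in the UPF1 knockdown (-0.03), and SRPK2 is above 0 in both.

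Transcripts were then summed by annotated class in each gene: coding, NMD substrate, retained intron, and other, which here holds transcripts without a defined reading frame. In the DHX34 knockdown 0 of 18 kinase classes passed edgeR, where 1.97% of all classes did. At an unadjusted p under 0.05 edgeR counted 6 (24.9% of all classes) and DESeq2 called 3 (9.33% of all), the coding and the NMD class of CLK1 and the coding class of SRPK2. In the UPF1 knockdown 1 of 18 was called, the other class of CLK2, where 12.2% of all classes were. There edgeR counted 6 at an unadjusted p under 0.05 (36.1% of all classes). DESeq2 called 2 (20.1% of all), the coding and the other class of CLK2. Between the knockdowns 0 of 18 passed edgeR (6.67% of all classes), while 6 had an unadjusted p under 0.05 (30.8% of all) and DESeq2 called 3 (15% of all), the NMD classes of CLK1 and SRPK1 and the coding class of CLK2.

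No single transcript of the kinases was called by edgeR in any comparison, where 0.0463% of all transcripts were called in the DHX34 knockdown, 2.59% in the UPF1 knockdown and 1.05% between them. Of 50 tested in the DHX34 knockdown, 6 had an unadjusted p under 0.05 (15.2% of all transcripts) and DESeq2 called 2 (4.57% of all), CLK1-201 and CLK1-204. Of 51 tested in the UPF1 knockdown, 3 had such a p (22.7% of all) and DESeq2 called the same 3 (13.9% of all), CLK2-205, SRPK1-210 and SRPK2-210. Between the knockdowns 10 of 51 had such a p (18.6% of all) and DESeq2 called 4 (7.23% of all), those 3 and CLK1-204. Non-overlap of TPM, given below for single forms and classes, was common over all features. Between a knockdown and SCR it held for 27% (DHX34) and 37% (UPF1) of all tested transcripts. For classes the shares were 35.6% and 47.8%.

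**Figure D3:**
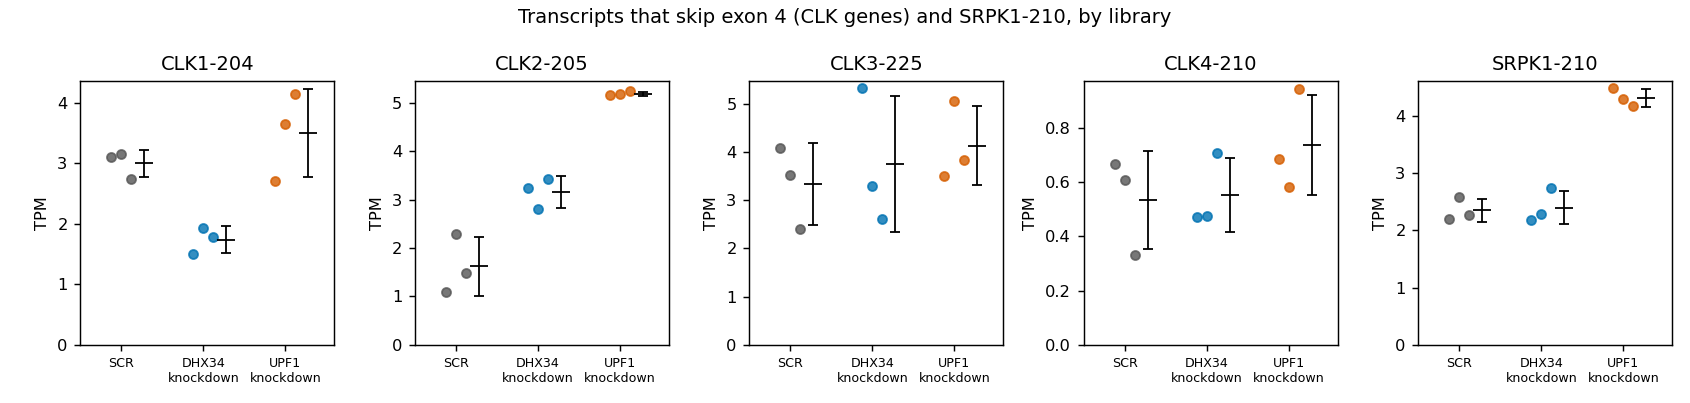
Level of CLK1-204, CLK2-205, CLK3-225 and CLK4-210, which skip exon 4, and of SRPK1-210 in each of the 9 libraries (TPM on the vertical axis, points for libraries, and beside them the group mean with its SD). CLK1-204 is lowest in the DHX34 knockdown (1.498 to 1.930 TPM), while CLK2-205 and SRPK1-210 are higher in all 3 UPF1 knockdown libraries than in any SCR library.

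CLK1-204, the form without exon 4 that makes up nearly all of the NMD class of CLK1, was at 3.104, 3.153 and 2.734 TPM in SCR, at 1.498, 1.930 and 1.786 in the DHX34 knockdown, and at 2.714, 3.649 and 4.136 in the UPF1 knockdown. The DHX34 knockdown lay below SCR in all 3 libraries, and the UPF1 knockdown overlapped SCR. After DHX34 knockdown the fitted log2 change of the NMD class was -0.97 with an SE of 0.15, and its edgeR adjusted p of 0.00802 missed the threshold. CLK1-201, the main coding transcript, was at 7.27, 6.84 and 6.25 TPM in SCR, 5.34, 5.41 and 5.82 in the DHX34 knockdown, and 7.82, 7.12 and 6.72 in the UPF1 knockdown. The fitted change of the coding class was -0.50 (SE 0.089), with an edgeR adjusted p of 0.013. As a share of the gene's TPM, the NMD class was 25.1% ± 2.07 in SCR, 17.8% ± 3.13 after DHX34 knockdown and 25.3% ± 5.67 after UPF1 knockdown (SD, n = 3). CLK1-210, which keeps introns 3 and 4, was at 0.749, 0.668 and 0.863 TPM in SCR, at 1.012, 0.778 and 1.386 in the DHX34 knockdown, and at 1.031, 1.217 and 1.007 in the UPF1 knockdown.

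In CLK2 the gene total was not called while 1 class of its transcripts rose after UPF1 knockdown. The other class was at 7.383, 10.05 and 8.96 TPM in SCR and at 14.11, 16.10 and 14.33 in the UPF1 knockdown, with no overlap. It rose by 0.69 on the log2 scale (SE 0.105, edgeR adjusted p 0.0023), a call that held in 1 of 6 fits that left out a library (adjusted p 0.00104 without SCR replicate 2, 0.00667 to 0.0134 otherwise) and was lost in 4 of 8 other fits, with length-scaled counts (0.016), all 9 libraries in one fit (0.00901) and limma on TPM with either pseudocount (0.00519 and 0.00529). CLK2-205, its form without exon 4, was at 1.082, 2.289 and 1.491 TPM in SCR, at 3.249, 2.800 and 3.435 in the DHX34 knockdown, and at 5.154, 5.173 and 5.239 in the UPF1 knockdown. The 3 groups did not overlap. On the log2 scale CLK2-205 was 1.43 higher after UPF1 knockdown (SE 0.26, edgeR adjusted p 0.0194) and 0.81 higher after DHX34 knockdown (edgeR adjusted p 0.217), neither called, from 131.6 to 813.9 expected counts per library. The coding class of CLK2 had a fitted log2 change of -0.28 after UPF1 knockdown (SE 0.057, edgeR adjusted p 0.00903), which missed the threshold. The coding share of CLK2 was 68.7% ± 4.31 in SCR, 62.7% ± 3.12 after DHX34 knockdown and 55.8% ± 1.81 after UPF1 knockdown (SD, n = 3).

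CLK3 and CLK4 showed no class or transcript that passed edgeR. CLK3-225, an NMD form without exon 4, was at 4.084, 3.521 and 2.404 TPM in SCR, 5.326, 3.296 and 2.620 after DHX34 knockdown, and 3.511, 5.055 and 3.832 after UPF1 knockdown. The groups overlapped, with fitted log2 changes of 0.00 (95% interval -0.85 to 0.86) and 0.07 (-0.58 to 0.72). CLK4-201, the coding transcript of CLK4, was at 1.690, 1.900 and 1.763 TPM in SCR, 1.349, 1.521 and 1.070 after DHX34 knockdown, and 2.335, 2.016 and 2.102 after UPF1 knockdown. It was lowest in the DHX34 knockdown without overlap (log2 change -0.61, SE 0.196, edgeR adjusted p 0.198). CLK4-210, the form without exon 4, stayed under 1 TPM, from 0.330 to 0.943 over the 9 libraries, and its groups overlapped.

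SRPK1 and SRPK2 each had a minor form that was higher after UPF1 knockdown. SRPK1-210, an NMD substrate, was at 2.201, 2.583 and 2.275 TPM in SCR, 2.174, 2.287 and 2.733 in the DHX34 knockdown, and 4.490, 4.293 and 4.179 in the UPF1 knockdown. It lay above SCR in all 3 UPF1 knockdown libraries, by 0.64 on the log2 scale, and was not called (edgeR adjusted p 0.0683). SRPK1-202, the main coding transcript, was between 49.142 and 58.243 TPM in the 9 libraries. SRPK1-213, a short retained-intron transcript of 634 bases, was at 18.537, 20.124 and 28.119 TPM in SCR, 32.986, 37.269 and 30.463 after DHX34 knockdown, and 27.681, 26.590 and 28.533 after UPF1 knockdown. All 3 DHX34 knockdown libraries lay above SCR in TPM, and from counts the log2 change was 0.40 (95% interval -0.07 to 0.88, edgeR adjusted p 0.422). SRPK2-210 was at 0.913, 1.085 and 0.807 TPM in SCR, 0.981, 1.362 and 1.140 in the DHX34 knockdown, and 2.540, 2.868 and 2.657 in the UPF1 knockdown. All 3 UPF1 knockdown libraries lay above SCR, by 1.28 on the log2 scale (SE 0.19), and edgeR gave an adjusted p of 0.0105. The quantified SRPK2-210 was 1336 bases long and the current annotation gives 5271, so its class is uncertain. SRPK2-202, the main coding transcript, was at 12.3, 13.9 and 13.8 TPM in SCR, 17.1, 17.4 and 18.3 in the DHX34 knockdown, and 17.0, 16.5 and 18.1 in the UPF1 knockdown.

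The level of a class relative to the coding transcripts of its gene was tested as a log2 ratio of TPM with limma. Of 9 kinase ratios 0 were called in any comparison, where 0.0117% of all ratios were called in the DHX34 knockdown, 0.023% in the UPF1 knockdown and 0.0226% between them. At an unadjusted p under 0.05 there was 1 in the DHX34 knockdown, the NMD ratio of CLK1 (9.09% of all ratios), and 1 between the knockdowns, the NMD ratio of SRPK1 (18.3% of all). In the UPF1 knockdown there were 2, the NMD ratio of SRPK1 and the retained-intron ratio of CLK3 (23% of all). The NMD ratio of SRPK1 was 0.64 log2 units higher in the UPF1 knockdown (limma adjusted p 0.135), beside a median of 0.47 over all genes. The retained-intron class of CLK3 was at 2.865, 2.872 and 3.203 TPM in SCR and 4.895, 4.993 and 4.634 in the UPF1 knockdown, a ratio 0.53 log2 units higher (limma adjusted p 0.145) where the median over all genes was 0.15. In the DHX34 knockdown the medians over all genes were 0.02 for NMD and 0.10 for retained-intron ratios.

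**Figure D4:**
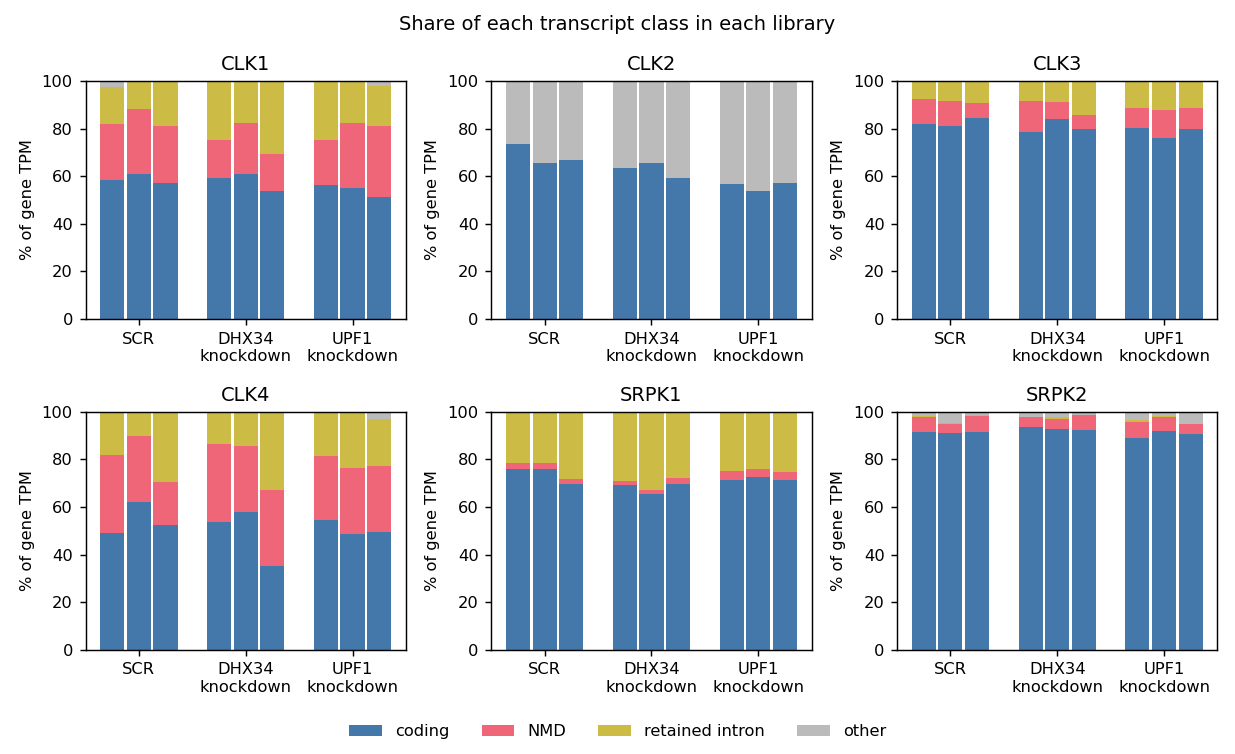
Share of each kinase gene's TPM in coding, NMD, retained-intron and other transcripts (percent, stacked to the gene total), per library. The coding share of CLK2 goes from 68.7% in SCR to 55.8% in the UPF1 knockdown, and the NMD share of CLK1 from 25.1% in SCR to 17.8% in the DHX34 knockdown.

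Inclusion of exon 4 was computed per library as the TPM of transcripts that hold the exon with both its boundaries, as a percentage of that plus the TPM of transcripts that join exon 3 to exon 5. In CLK1 it was 70.91%, 68.90% and 71.41% in SCR, 78.45%, 73.99% and 77.13% in the DHX34 knockdown, and 74.80%, 67.08% and 63.08% in the UPF1 knockdown. The DHX34 knockdown lay 6.11 percentage points higher without overlap (exact two-sided permutation p = 0.10, the smallest that 3 against 3 libraries allow), and the UPF1 knockdown overlapped SCR. In CLK2 it was 92.20%, 84.47% and 89.23% in SCR, 79.15%, 82.38% and 80.31% in the DHX34 knockdown, and 70.21%, 71.89% and 71.04% in the UPF1 knockdown. Both knockdowns lay below SCR without overlap, with differences of -8.02 and -17.58 points (exact permutation p = 0.10 each). With every form that overlaps exon 4 counted, an alternative chosen after seeing the data, the differences were -5.24 and -12.69 points. CLK3 was at 78.23%, 80.13% and 86.03% in SCR, and its means in the knockdowns differed by 0.01 and -1.42 points with overlapping libraries. CLK4 was at 74.79%, 78.15% and 85.84% in SCR, with differences of -4.95 and -3.0 points that also overlapped. Leaving out 1 library gave CLK4 differences of -7.35 to -1.79 points after DHX34 knockdown (-1.79 without DHX34 knockdown replicate 3, -1.82 without SCR replicate 3) and -5.4 to 0.36 after UPF1 knockdown (0.36 without UPF1 knockdown replicate 3, 0.12 without SCR replicate 3). The UPF1 difference of CLK1 likewise ran from -5.33 without UPF1 knockdown replicate 1 to 0.53 without replicate 3. Those of CLK3 ran from -2.56 to 3.2 after DHX34 knockdown and from -3.04 to 0.86 after UPF1 knockdown, so none of these had a steady direction except CLK4 after DHX34 knockdown.

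Retention of the introns beside exon 4 was higher in CLK1 and CLK4 after DHX34 knockdown, and its means were higher after UPF1 knockdown as well. CLK1 intron 4 was retained in 11.52%, 12.58% and 14.11% of the TPM of the forms compared in SCR, 21.47%, 17.86% and 23.40% in the DHX34 knockdown, and 14.66%, 17.37% and 16.97% in the UPF1 knockdown. All libraries of both knockdowns lay above SCR, by means of 8.17 and 3.60 points (exact permutation p = 0.10 each). CLK1 intron 3 differed by 5.94 and 2.98 points, again without overlap. Higher retention in CLK1 was not confined to these introns. CLK1 intron 7 was at 2.01%, 3.02% and 2.43% in SCR and 5.67%, 4.83% and 4.67% in the DHX34 knockdown. That was 2.57 points higher without overlap, and the UPF1 knockdown was 0.55 points higher with overlap. CLK1-207 keeps both intron 4 and intron 7, so it enters both shares. CLK4 intron 3 was at 9.95%, 9.47% and 9.91% in SCR, 17.99%, 13.24% and 24.54% in the DHX34 knockdown, and 17.06%, 21.28% and 14.93% in the UPF1 knockdown, differences of 8.81 and 7.98 points without overlap. CLK4-203, which keeps introns 3 and 4, was at most 0.655 TPM and at 0 in SCR replicate 2, so these shares rest on few reads. CLK4 intron 4 was at 13.20%, 4.98% and 14.11% in SCR and 20.04%, 17.72% and 17.68% in the DHX34 knockdown, a difference of 7.72 points, or 4.83 without SCR replicate 2. In the UPF1 knockdown CLK4 intron 4 was at 10.32%, 23.59% and 18.50%. That was 6.70 points higher, or 3.81 without SCR replicate 2, and overlapped SCR. In CLK2 intron 4 the DHX34 knockdown overlapped SCR (2.15 points higher) and the UPF1 knockdown did not (2.65 points higher). CLK3 intron 4 lay 1.41 points higher after DHX34 knockdown without overlap, and 1.46 points higher after UPF1 knockdown with overlap. With transcripts under a mean of 0.1 TPM removed, the UPF1 difference of CLK3 intron 4 was 0.23 points. DHX34 knockdown replicate 3 had the highest median intron retention over all genes, 6.02% against 4.25% to 4.945% in SCR, while replicates 1 and 2 were at 4.89% and 4.58%. All 3 UPF1 knockdown libraries, at 5.695%, 5.34% and 5.51%, also lay above every SCR library. Without DHX34 knockdown replicate 3 the differences were 4.38 points for CLK1 intron 3, 6.93 for CLK1 intron 4, 5.84 for CLK4 intron 3, 8.12 for CLK4 intron 4, 0.37 for CLK2 intron 4 and 0.92 for CLK3 intron 4. The part of these general levels in the results was not tested.

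**Figure D5:**
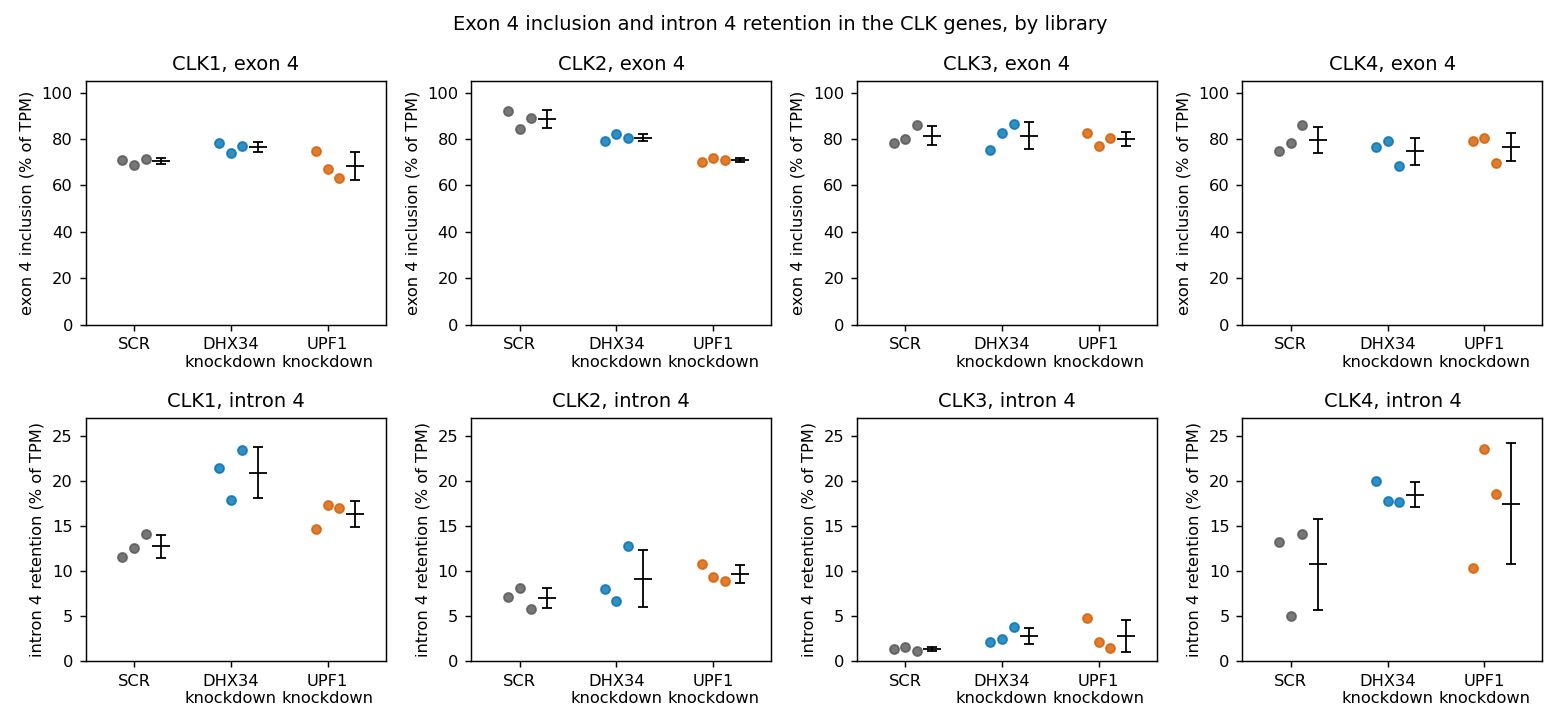
Inclusion of exon 4 and retention of intron 4 in the 4 CLK genes (percent of the TPM of the transcripts compared, 1 point per library, with the group mean and SD beside them). In CLK2 exon 4 inclusion is lowest in the UPF1 knockdown (70.21% to 71.89%), and in CLK1 intron 4 retention is highest in the DHX34 knockdown (17.86% to 23.40%).

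In all, 5 exon and 13 intron shares of the kinases could be computed, several from the same transcripts, and all but intron 1 of SRPK1 belong to the CLK genes. The groups did not overlap in 8 of the 18 after DHX34 knockdown, where 17.7% of all exon shares and 14.6% of all intron shares did not, and in 8 of 18 after UPF1 knockdown, where 25.6% of exon and 26.8% of intron shares did not. The 8 after UPF1 knockdown include exon 10, intron 11 and intron 12 of CLK4, which are a single contrast. It is set by CLK4-202, with 9.3 to 30.6 expected counts per library. Inclusion of exon 10 was 1.57 points higher, and retention of intron 11 and of intron 12 was 1.57 points lower. With transcripts under a mean of 0.1 TPM removed, the UPF1 knockdown kept 3 of 15, CLK1 intron 4, CLK2 exon 4 and CLK2 intron 4. Under that minimum the highest SCR library of CLK1 intron 3 was at 11.38% and the lowest UPF1 knockdown library at 11.34%, and CLK4 intron 3 was at 9.58% in its lowest UPF1 knockdown library against 9.91% in its highest SCR library. Over all genes the median change was 0.39 points for introns and 0.03 for exons after DHX34 knockdown, and 0.63 and -0.74 after UPF1 knockdown.

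The proteins the kinases act on and the other enzymes of the pathway were followed as a list of 33 genes, of which 32 could be tested. Of the SR proteins, the substrates of the kinases, 0 rose and 3 of 13 fell after DHX34 knockdown, and 1 rose and 5 fell after UPF1 knockdown. Over all tested genes 5.54% rose and 4.86% fell after DHX34 knockdown, and 12.4% rose and 12.9% fell after UPF1 knockdown, and the counts of each group of the list are set against those shares. Of 14 other kinases of related families, 4 rose and 0 fell after DHX34 knockdown, and 4 rose and 1 fell after UPF1 knockdown. Of 5 phosphatase and importer genes, 0 changed after DHX34 knockdown and 2 fell after UPF1 knockdown. The median log2 fold change of the list was -0.06 after DHX34 knockdown and -0.09 after UPF1 knockdown, beside 0.02 over all genes in each. DYRK2, a kinase of the DYRK family, which is related to the CLK family, rose most after DHX34 knockdown (log2 fold change 0.66, SE 0.062, edgeR adjusted p 5.08e-05), from 3.853, 4.56 and 4.483 TPM in SCR to 7.94, 7.856 and 7.74. DYRK2 also rose after UPF1 knockdown, by 0.525 (edgeR adjusted p 1.55e-05), and was not called between the knockdowns (edgeR adjusted p 0.0718). HIPK2 rose after both knockdowns, by 0.55 (edgeR adjusted p 0.000173) and 0.56 (edgeR adjusted p 6.58e-06). So did HIPK3, by 0.501 (edgeR adjusted p 0.000378) and 0.545 (edgeR adjusted p 1.1e-05). TRA2B, an SR-like splicing activator, was 0.44 log2 units higher in the UPF1 than in the DHX34 knockdown (SE 0.03, edgeR adjusted p 1.4e-06).

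Across the 9 libraries the genes most like each kinase were taken by Pearson's r of log2(TPM + 0.1) over 8533 protein-coding genes whose mean reached 5 TPM (8534 for CLK4). They were FMR1 for CLK1 (r = 0.965), ZWINT for CLK2 (0.981), GALNT10 for CLK3 (0.964), CFAP410 for CLK4 (0.962), TMEM184C for SRPK1 (0.99) and ANO6 for SRPK2 (0.988). Between kinases r was 0.946 for CLK1 with CLK4 and 0.969 for SRPK1 with SRPK2. The points share 3 groups and the TPM shift between them, so these values describe the libraries only.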

How the data were processed

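Poly(A) RNA-seq libraries of K562 cells, grouped by their labels, were analysed from the salmon tables that the authors deposited on GRCh38, which give the expected count and the TPM of each transcript. The authors' sleuth and SUPPA2 tables hold their own comparisons and were not used. Transcripts were joined by identifier to GENCODE 44, later than the authors' annotation (97.9% matched), which supplied classes, exons and coordinates. The printed sequences were read from the hg38 genome, and 1 further sequence is not reported here. The 6 genes, the gene lists and the named transcripts (up to 5 per gene with a mean of at least 1 TPM in a group) were chosen with earlier results of these data known. CLK1-207, CLK4-202, CLK4-203 and CLK4-210 lie outside that rule and were named after their values were seen. Expected counts were summed per gene and class, rounded, filtered (filterByExpr, minimum count 10) and tested pairwise with edgeR 4.0.16 in R 4.3.3, with TMM size factors. Ratios (pseudocount 0.1 TPM, coding at least 1 TPM, class at least 0.1 TPM) were tested with limma 3.58.1. Single shares were compared by exact permutation. DESeq2 1.42.0, limma on TPM, a replicate block, length-scaled counts, other filters and leaving out each library were alternatives. The fits were tested on simulated data whose changes were larger than those of the kinase genes, so the recovery of such small changes was not tested. Intervals from the fits cover the spread between libraries.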

Additional observations from a re-analysis of the deposited data

How the results depend on the processing

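Counts of changed kinase genes were 2 after DHX34 knockdown, 0 after UPF1 knockdown and 2 between the knockdowns. For the DHX34 knockdown the count was 3 at an adjusted p of at most 0.05, 1 with a replicate block or limma on log2(TPM + 0.1), and 0 with limma on log2(TPM + 0.5) or length-scaled counts. For the UPF1 knockdown it was 1 with an adjusted p of at most 0.05, DESeq2, no filter, a replicate block, all 9 libraries in one fit or length-scaled counts, and 3 with limma on TPM. Between the knockdowns it was 0 with limma on TPM or length-scaled counts. Leaving out 1 library gave 0 to 2, 0 to 1 and 0 to 2. Class counts of 0, 1 and 0 were 3, 3 and 5 at an adjusted p of at most 0.05 and 3, 2 and 3 with DESeq2. All 9 libraries gave 1 in the DHX34 knockdown and 1 between the knockdowns. In the UPF1 knockdown the class count was 2 without a filter, 2 or 3 with limma on TPM, 0 with length-scaled counts, and 0 to 1 without 1 library. The transcript counts of 0 were 1, 2 and 2 at an adjusted p of at most 0.05 and 2, 3 and 4 with DESeq2, and 0 in the other fits. Shares without overlap numbered 8 in each knockdown, 8 to 11 (DHX34) and 8 to 13 (UPF1) without 1 library, with 13 reached without SCR replicate 2, and 3 in the UPF1 knockdown with the 0.1 TPM minimum. SRPK1 reversed in the UPF1 knockdown, from a log2 fold change of -0.03 to 0.23 with limma on log2(TPM + 0.5) and 0.23 with log2(TPM + 0.1), and the causes of this and the other moves were not tested. Deviations from group means correlated at -0.088 to 0.076 between same-numbered libraries and at -0.083 to 0.067 between the others. These values gave no sign of pairing by number but cannot exclude it. With the replicate block the adjusted p of SRPK2 was 0.0107 after DHX34 knockdown and 0.00403 after UPF1 knockdown, and CLK1 in the DHX34 knockdown was at 0.00471. With 3 libraries a group, small changes in low transcripts were not detectable, and an expected count can move between similar forms.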
